A study of Mus musculus with 10 samples.

Results

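The mitochondrial ribosome is built from proteins encoded in the nucleus, and 77 loci carry the symbol of such a protein, Mrpl or Mrps followed by a number and an optional letter. They were found by symbol among the 46956 named loci of each sample table, and 5 rows whose symbol marks a pseudogene copy were left out. The RNA came from macrophages sorted out of 4T1 tumours, a mouse mammary carcinoma line implanted at its tissue of origin, the mammary fat pad, with BALB/cJ mice as hosts. The sort kept live CD45+ CD11b+ F4/80+ cells without CD8, Ly6C or Ly6G. Vehicle mice (5 samples) received PBS, and JHU083 mice (5 samples) received JHU083, a prodrug of the glutamine antagonist 6-diazo-5-oxo-L-norleucine, at 1 mg/kg from day 7 to day 13 after injection of the tumour cells. Both groups carried the same tumour and were harvested on day 14. The labels number the samples within each group and do not say whether each came from 1 mouse, so the p-values measure the spread between these samples.

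The mitochondrial ribosome translates the messages transcribed from mitochondrial DNA, all of which encode subunits of the respiratory chain and the ATP synthase. Its large subunit forms peptide bonds and its small subunit reads the message. Many of its proteins descend from bacterial ribosomal proteins, and the rest were added in the mitochondrial lineage. The proteins are made in the cytosol and imported, while the ribosomal RNA is transcribed inside the organelle.

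Sequencing gave 11147723 to 14575720 assigned fragments per vehicle sample and 13638169 to 15740488 per JHU083 sample. All 77 genes passed the filter on low counts, with 107 to 1393 fragments per gene and sample, so none was too low to test. Levels below are counts per 1e+06 assigned fragments after scaling between samples (CPM), or FPKM, which also divides by transcript length. The sorted cells expressed macrophage markers at a summed 4136 to 4549 CPM in vehicle and 5443 to 6059 CPM in JHU083 samples. Of these 7 genes 3 rose (18.4% of all loci did) and 4 did not pass the test, and the lowest log2 fold change was -0.21. Keratins, Epcam and Cdh1, which mark the carcinoma cells, summed to 263 to 556 CPM in vehicle and 94.7 to 194.7 CPM in JHU083 samples, and 6 of these 6 genes fell. None of the 6 was at 0 in either group. In 5 samples (vehicle replicates 2, 4 and 5, JHU083 replicates 1 and 3) the ribosomal RNA loci Rn18s-rs5 and Gm42418 are listed at 0, while in the others they hold 2.87% to 5.59% of the fragments.

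Promoter sequence was taken from RefSeq (GRCm38.p6), as the 250 bases before the annotated start, for the 68 of 77 members with an entry. The motif CCGGAAG, which ETS-family factors bind, occurred on either strand in 17 of these 68 genes (25%), in 16.2% of 8362 protein-coding genes tested here and in 7.83% of all 27025 genes with an entry. The motif of nuclear respiratory factor 1, searched with 1 unspecified base, occurred in 10 of the 68 (14.7%), 9.71% and 4.23% respectively. CCAAT occurred in 36.8%, 40.7% and 37.5%. The GC box GGGCGG occurred in 48.5% of the members' promoters against 64.4% of those of genes tested here. TATAAA occurred in 7.35% against 7.58%. CACGTG was found in 7.35% against 9.91%, and AAGATGGCG, a YY1 motif, in 2.94% against 1.41%. CCGGAAG was present in 8 of the 21 genes with an entry that fell with JHU083 and in 9 of the 47 that did not pass the test. These matches describe letters in a window and are not measured binding. The 5 promoters below belong to genes among the 10 largest decreases that hold a marked motif, and show the 3 motif classes side by side. Mrps15, Mrps18b and Mrpl10, also among those 10, held none of the motifs marked below. Capitals mark the ETS, nuclear respiratory factor 1, CCAAT and YY1 motifs on either strand, so that a site on the other strand reads as its reverse complement. Mrps27 (chr13:99344536-99344785, plus strand), Mrpl22 (chr11:58171414-58171663, plus strand) and Mrps26 (chr2:130563507-130563756, plus strand) hold the ETS motif. Mrpl12 (chr11:120484387-120484636, plus strand) holds the nuclear respiratory factor motif. Mrps12 (chr7:28741822-28742071, minus strand) holds 4 copies of CCAAT.
Mrps27: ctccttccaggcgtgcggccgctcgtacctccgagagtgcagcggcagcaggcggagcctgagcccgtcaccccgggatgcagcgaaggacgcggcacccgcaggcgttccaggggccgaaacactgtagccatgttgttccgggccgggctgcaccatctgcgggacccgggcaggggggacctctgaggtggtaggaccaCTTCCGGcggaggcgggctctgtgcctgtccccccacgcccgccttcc
Mrpl22: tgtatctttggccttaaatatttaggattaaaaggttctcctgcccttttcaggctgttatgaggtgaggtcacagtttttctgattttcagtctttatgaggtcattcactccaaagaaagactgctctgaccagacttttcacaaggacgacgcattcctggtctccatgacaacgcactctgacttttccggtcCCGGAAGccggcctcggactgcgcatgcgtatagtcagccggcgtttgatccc
Mrps26: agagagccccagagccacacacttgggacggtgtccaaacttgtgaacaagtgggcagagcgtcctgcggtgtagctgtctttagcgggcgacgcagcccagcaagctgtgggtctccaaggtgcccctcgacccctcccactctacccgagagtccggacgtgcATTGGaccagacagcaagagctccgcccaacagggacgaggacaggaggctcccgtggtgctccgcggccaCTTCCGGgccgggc
Mrpl12: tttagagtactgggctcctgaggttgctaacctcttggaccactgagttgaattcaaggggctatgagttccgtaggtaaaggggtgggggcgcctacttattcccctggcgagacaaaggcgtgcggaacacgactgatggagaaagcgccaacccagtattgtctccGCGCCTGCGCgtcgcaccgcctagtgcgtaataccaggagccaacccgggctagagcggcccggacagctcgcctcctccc
Mrps12: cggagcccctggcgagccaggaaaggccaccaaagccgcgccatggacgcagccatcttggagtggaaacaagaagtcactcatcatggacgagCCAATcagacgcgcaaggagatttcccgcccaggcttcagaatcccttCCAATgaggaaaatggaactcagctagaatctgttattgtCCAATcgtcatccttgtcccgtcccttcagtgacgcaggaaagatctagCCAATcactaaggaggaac

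Of the 77 mitochondrial ribosomal protein genes, 25 fell after JHU083 and 52 did not pass the test. The 25 stand against a background of 18.3% of 12500 loci that fell and 18.4% that rose (edgeR quasi-likelihood test, adjusted p under 0.05). None of the 77 rose, so that 25 changed in either direction (background 36.7%). The fold change lay below 0 for 73 of the 77, against 48.9% of all loci, and the median log2 fold change was -0.26 against 0.01 for all loci. The genes that passed fell by 16.4% to 37.9%, so the shift was modest in each gene. At an unadjusted p under 0.05 there were 43 lower (background 23.1%) and 0 higher (background 23.6%). The groups did not overlap in 6 genes, in which all 5 JHU083 samples lay below all 5 vehicle samples (background 11.1%). Without JHU083 replicate 3 the number that fell was 54 (background 23.1%), and without vehicle replicate 1 it was 12, a share of the 77 close to the background of 15.1%, and 0 rose in either fit (background 22.9% and 14.4%). The carcinoma markers and 8 of 10 cell-cycle genes fell in the same comparison. Of 4 fibroblast markers 3 fell, and their sum was 68.7 to 150.8 CPM in vehicle and 17 to 80.2 CPM in JHU083 samples. Endothelial markers summed to 122 to 209 and 33.9 to 82.1 CPM without overlap, where 1 of 3, Pecam1, fell. Neutrophil markers summed to 40.7 to 53.3 CPM in vehicle and 16 to 70.7 CPM in JHU083 samples, where the groups overlapped and JHU083 replicate 4 was the highest of the 10, and of 5 tested 2 fell (S100a8 and S100a9), with Ly6g at or near 0. Eosinophil markers summed to 3.6 to 9.88 and 6.56 to 16.7 CPM with overlap, where 1 of 3 tested, Siglecf, rose and Epx was at or near 0. T-cell markers summed to 15.3 to 19.4 and 27.5 to 44.1 CPM without overlap, where Cd4 rose and Cd3e, Cd3d and Cd8a were near 0. The part of these markers in the result was not tested. In bulk RNA, fewer cells of a type and less RNA per cell cannot be told apart.

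**Figure D1:**
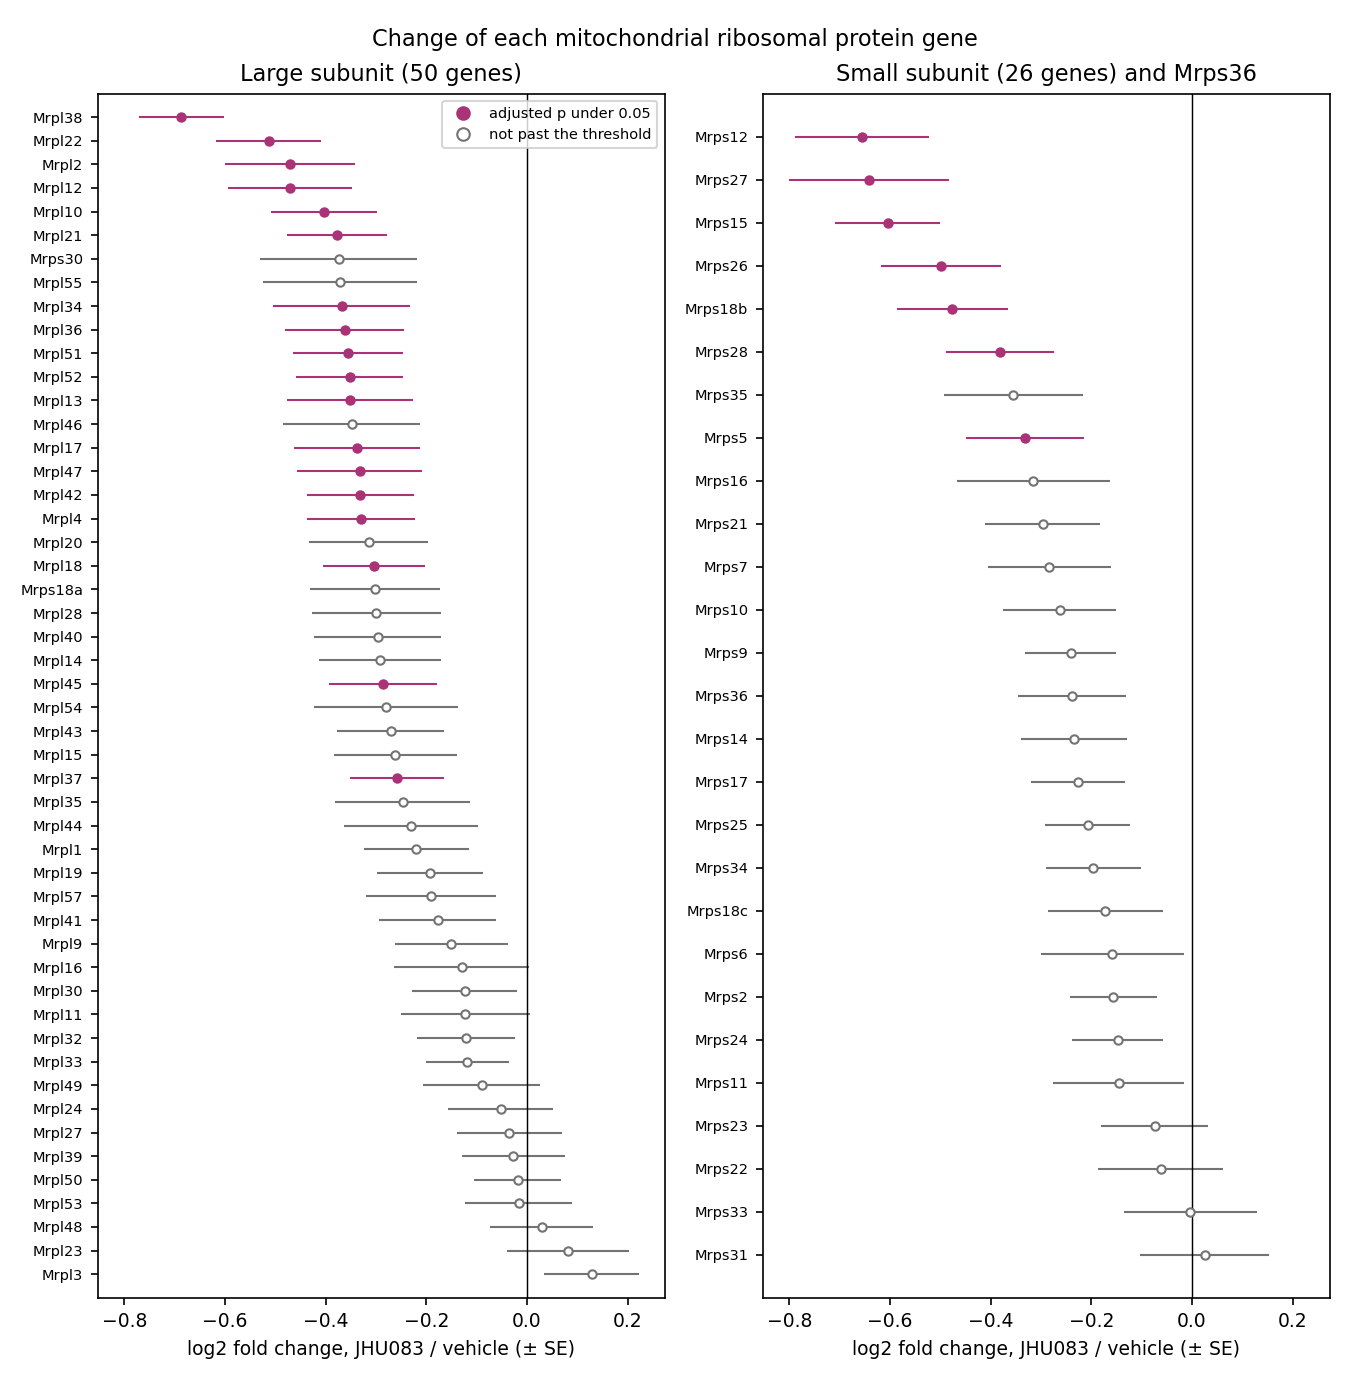
Log2 fold change of JHU083 over vehicle (x axis, points with standard error bars) for each of the 77 genes, in order of size, large subunit on the left and small subunit with Mrps36 on the right. Filled points passed the test (adjusted p under 0.05); the 25 filled points all lie left of 0 and 4 open points lie right of it.

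Genes of both subunits fell. In the large subunit 18 of 50 genes (36%) fell, with a median log2 fold change of -0.28, and in the small subunit 7 of 26 (26.9%) fell, with a median of -0.24. The share of all loci that fell was 18.3%, and a difference between the subunits was not tested. Mrps30 and Mrps18a, named for the small subunit but placed in the large one by ribosome structures, were counted with the large. Mrps36, now known as a part of the oxoglutarate dehydrogenase complex, was counted with neither and had a log2 fold change of -0.24 (adjusted p = 0.098, edgeR). Genes listed with a bacterial homologue and the remaining genes of the 2 subunits both contributed. Of these 16 of 46 (34.8%) and 9 of 30 (30%) fell, with medians of -0.27 and -0.26, against the same 18.3% of all loci. The 30 are mostly mitochondrion-specific but include Mrps18a and Mrps18b, relatives of bacterial S18. The ratio of summed large-subunit to summed small-subunit FPKM was 2.23 to 2.34 in vehicle and 2.23 to 2.47 in JHU083 samples, ranges that overlap.

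Mrpl38 encodes a mitochondrion-specific protein of the central protuberance of the large subunit and lies at chr11:116131817-116138868 (minus strand, GENCODE M21). Its level was 39.8, 34.4, 34.2, 34.1 and 35.5 CPM in vehicle replicates 1 to 5 and 21.5, 21.7, 24.5, 19.6 and 23.2 CPM in JHU083 replicates 1 to 5. Every JHU083 sample was below every vehicle sample, with a gap wider than the spread within either group. The log2 fold change was -0.69 ± 0.08 (SE), the largest decrease of the 77 (adjusted p = 4.2e-05, edgeR), and Mrpl38 kept its call under all 24 alternative analyses.

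Mrpl22 lines the exit tunnel of the large subunit and lies at chr11:58171661-58179565. Its level was 14.5, 16, 15.9, 15.6 and 16.5 CPM in vehicle and 9.75, 9.60, 12.7, 11.5 and 11.5 CPM in JHU083 samples. The vehicle samples were tightly grouped and the JHU083 samples all lay below them. Mrpl22 fell by 0.51 ± 0.10 (SE) on the log2 scale (adjusted p = 0.0018, edgeR).

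Mrpl12 and Mrpl10 belong to the stalk of the large subunit, where translation factors dock. Mrpl12 stood at 94.6, 83.8, 71.1, 86.6 and 101 CPM in vehicle and at 59.0, 53.2, 82.7, 65.5 and 55.3 CPM in JHU083 samples. JHU083 replicate 3 lay inside the vehicle range, and the other 4 were below it. Its log2 fold change was -0.47 (adjusted p = 0.009), and that of Mrpl10 was -0.40 (adjusted p = 0.0089, both edgeR). Mrpl2, a homologue of a bacterial protein beside the peptidyl transferase centre, showed 53.7, 49.7, 47.7, 60.8 and 65.0 CPM in vehicle and 36.8, 36.2, 54.6, 34.9 and 37.1 CPM in JHU083 samples. Here too replicate 3 was the only JHU083 sample within the vehicle range, and the log2 fold change was -0.47 (adjusted p = 0.011, edgeR).

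In the small subunit, Mrps12 encodes the homologue of a protein at the bacterial decoding centre and lies at chr7:28739641-28741820 (minus strand). Its level was 25.7, 18.8, 18.2, 25.6 and 24.3 CPM in vehicle and 14.5, 12.7, 18.1, 13.2 and 13.0 CPM in JHU083 samples. All 5 JHU083 samples were lower than all vehicle samples, although replicate 3 was close to the lowest vehicle sample. The log2 fold change was -0.66 ± 0.13 (SE, adjusted p = 0.0018, edgeR).

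Mrps15, another bacterial homologue, was measured at 49.0, 38.9, 36.5, 43.7 and 47.2 CPM in vehicle and 29.6, 26.5, 33.6, 26.1 and 25.7 CPM in JHU083 samples. The groups did not overlap, and Mrps15 fell by 0.60 ± 0.10 (SE) on the log2 scale (adjusted p = 0.00057, edgeR). Mrps27, a pentatricopeptide repeat protein found only in mitochondria, stood at 20.4, 19.8, 14.3, 19.1 and 23.1 CPM in vehicle and 11, 9.73, 17.5, 12.4 and 11.5 CPM in JHU083 samples. JHU083 replicate 3 exceeded vehicle replicate 3, so the groups overlapped, and the log2 fold change was -0.64 ± 0.16 (SE, adjusted p = 0.0066, edgeR).

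Mrps26 fell by 0.50 and Mrps18b by 0.48 on the log2 scale (adjusted p = 0.0051 and 0.0041, edgeR). Mrps18b is 1 of 3 mammalian relatives of bacterial S18, and the other two did not pass the test: Mrps18a had a log2 fold change of -0.30 (adjusted p = 0.08) and Mrps18c of -0.17 (adjusted p = 0.25, edgeR). Whether the 3 relatives differ from each other was not tested. Mrps5, the homologue of a protein near the bacterial decoding site, fell by 0.33 on the log2 scale (adjusted p = 0.039, edgeR). Mrpl41, specific to mitochondria, had -0.18 (adjusted p = 0.25, edgeR).

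**Figure D2:**
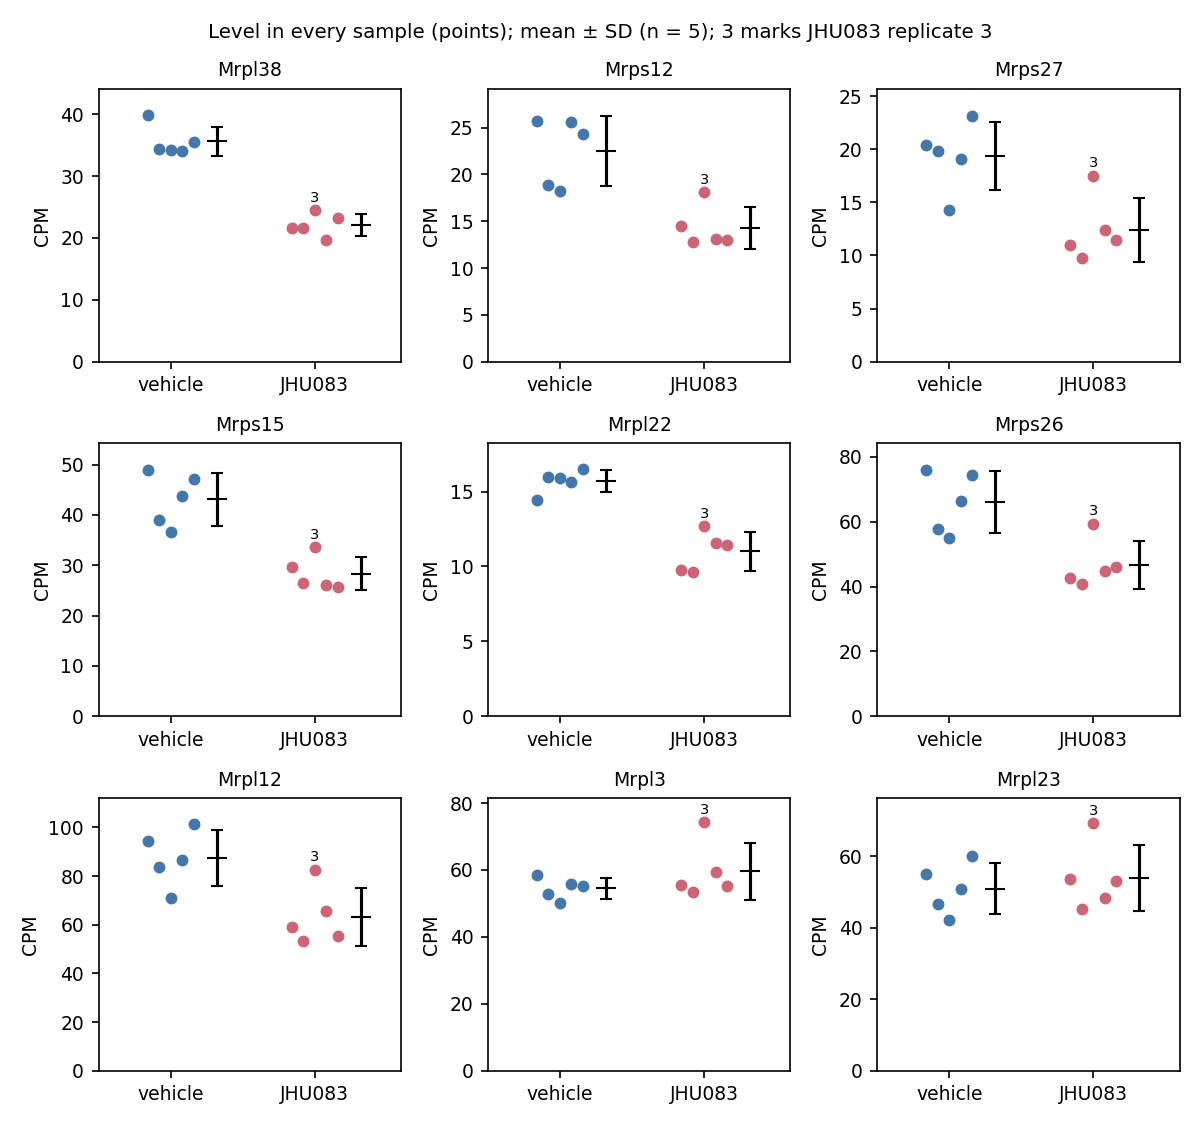
CPM (y axis, from 0) of 9 genes in every sample, with vehicle in blue, JHU083 in red and the mean ± SD of 5 samples beside the points; a 3 marks JHU083 replicate 3. The first 7 genes are among the largest decreases and Mrpl3 and Mrpl23 have the highest fold changes of the 77; replicate 3 is the highest JHU083 sample in each panel.

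Not every member was lower. Mrpl3, whose bacterial homologue lies near the peptidyl transferase centre, stood at 58.3, 52.9, 50.2, 55.8 and 55.1 CPM in vehicle and 55.6, 53.3, 74.3, 59.4 and 55.3 CPM in JHU083 samples. Apart from replicate 3 the JHU083 samples lay within or just above the vehicle range, and the log2 fold change was 0.13 (adjusted p = 0.30, edgeR). Mrpl23, located at the exit of the tunnel, had 0.08, and Mrpl48 and Mrps31 had 0.03 each, none of which passed the test. Scaling by library size alone, which lowered the median of all loci from 0.01 to -0.07, gave Mrpl23 and Mrps31 log2 fold changes of -0.001 and -0.058 and turned Mrpl48 as well, leaving 76 of the 77 below 0. A shift of that size moves all loci alike.

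Levels per length spanned a wide range within this one particle. By FPKM the most abundant transcripts were Mrpl52 (282 ± 31.1 in vehicle, 219 ± 28.5 in JHU083 samples; SD, n = 5), Mrps21, Mrpl33, Mrpl17 and Mrpl23. The least abundant were Mrpl1 (6.07 ± 0.97 in vehicle, 5.22 ± 1.00 in JHU083 samples; SD, n = 5), Mrps30, Mrps31, Mrps27 and Mrpl44. Of the 5 most abundant, Mrpl52 and Mrpl17 fell, by 0.35 and 0.34 on the log2 scale (adjusted p = 0.019 and 0.048, edgeR). The share of all loci that fell was 18.3%. With the GC and length correction described below, Mrpl52 lost its call, Mrpl17 kept it, Mrps21 fell (background 17.5%) and Mrpl23 rose (background 22.6%). Mrps27 was the only member of the 5 least abundant that fell in the main fit, against the same 18.3% of all loci. With the correction Mrpl1 and Mrps30 fell as well (background 17.5%). A link between abundance and fold change was not tested.

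The samples of each group were not alike. Each gene's log2 CPM was set against its own mean over the 10 samples, and the median over the 77 genes was taken in each sample. This median was 0.23, 0.05, -0.02, 0.12 and 0.24 in vehicle replicates 1 to 5 and -0.20, -0.32, 0.19, -0.14 and -0.20 in JHU083 replicates 1 to 5. JHU083 replicate 3 lay inside the vehicle range, above vehicle replicates 2, 3 and 4, and the other 4 JHU083 samples lay below all vehicle samples. Replicate 3 was the highest JHU083 sample for 67 of the 77 genes, against 32.7% of all loci tested. Setting it aside, the other 4 JHU083 samples were below all 5 vehicle samples in 41 of the 77 genes (background 17.4%) and above them in 0 (17.6%). Summed over the 77 genes, vehicle samples held 2504 to 3025 CPM, JHU083 replicate 3 held 2900 CPM and the other JHU083 samples held 2052 to 2326 CPM.

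**Figure D3:**
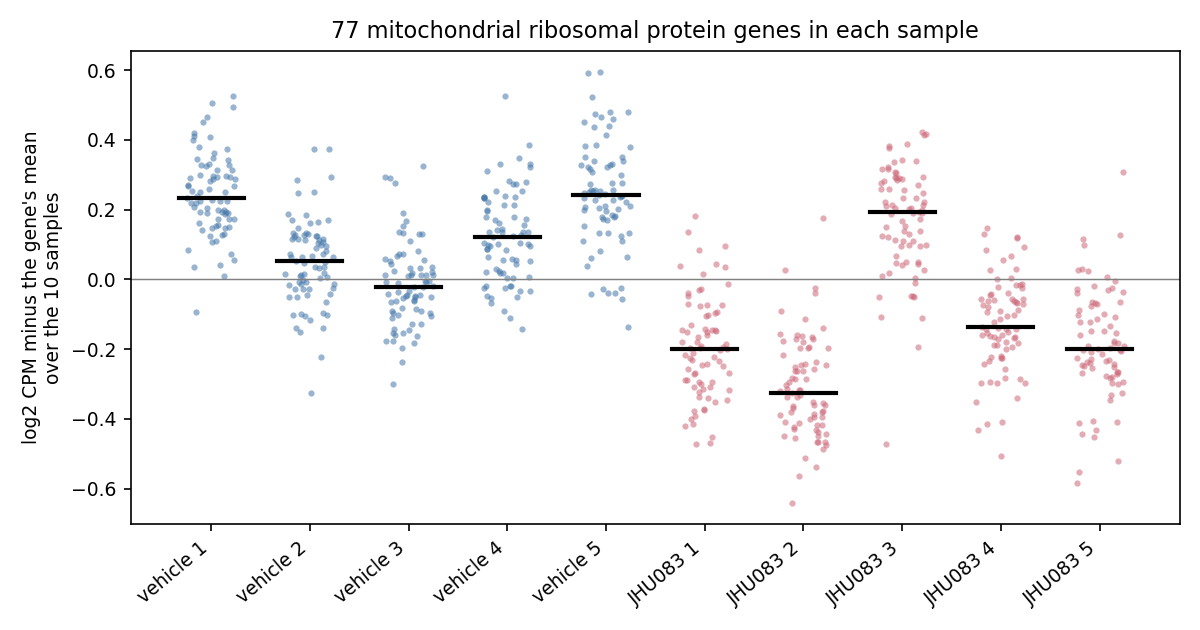
Log2 CPM of each of the 77 genes minus its mean over the 10 samples (y axis), by sample (x axis), with vehicle in blue and JHU083 in red; black lines are the medians. The medians of 4 JHU083 samples, -0.32 to -0.14, lie below those of all vehicle samples, and that of JHU083 replicate 3 is 0.19.

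Short transcripts at large varied among the samples too. The median deviation of all tested loci up to 1000 bases long was 0.15, 0.01, -0.05, 0.09 and 0.15 in vehicle replicates 1 to 5 and -0.11, -0.22, 0.20, -0.03 and -0.12 in JHU083 replicates 1 to 5. JHU083 replicate 3 was the highest of the 10 samples for short loci, JHU083 replicates 1, 2 and 5 lay below all vehicle samples, and JHU083 replicate 4 lay within the vehicle range. In JHU083 replicate 3 the cell-cycle genes had a median deviation of -0.43, within the range of the other JHU083 samples (-0.59 to -0.36), and the carcinoma markers summed to 94.7 CPM, the lowest of the 10 samples. The part of sample composition in the position of replicate 3 was not tested.

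Mitochondrial ribosomal protein transcripts are short, with a median effective length of 932 bases against 2383 for all loci, and their GC content is close to the rest (median 51.1% against 50.4%). Shorter loci had lower fold changes in general. Up to 1000 bases the median log2 fold change was -0.12 for all loci and -0.30 for the 43 members of that length. From 1000 to 2000 bases it was -0.05 for all loci and -0.26 for 27 members, and above 2000 bases 0.07 for all loci and -0.19 for 7 members. The members' median was thus below that of all loci in each length class.

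A fit that removed each sample's own trend with GC content and length gave a median of -0.17 for the members and 0.04 for all loci. In that fit 27 members fell (background 17.5%) and 1 rose (background 22.6%), and 67 of 77 lay below 0. Of the 25 genes that fell without the correction 19 kept their call. Mrpl34, Mrpl37, Mrpl4, Mrpl45, Mrpl52 and Mrps5 lost it, while Mrpl1, Mrpl15, Mrpl20, Mrps14, Mrps21, Mrps25, Mrps30 and Mrps35 gained one. Mrpl38 had -0.44 (adjusted p = 0.00029), Mrps12 -0.42 (adjusted p = 0.003) and Mrps27 -0.56 (adjusted p = 0.0044, all edgeR), so the order of the largest decreases changed. Mrpl23 was the gene that rose, by 0.25 on the log2 scale (adjusted p = 0.013, edgeR). After the correction, the median deviation of JHU083 replicate 3 was 0.06, inside the vehicle range of 0.01 to 0.15, and the other JHU083 samples lay between -0.16 and -0.10.

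**Figure D4:**
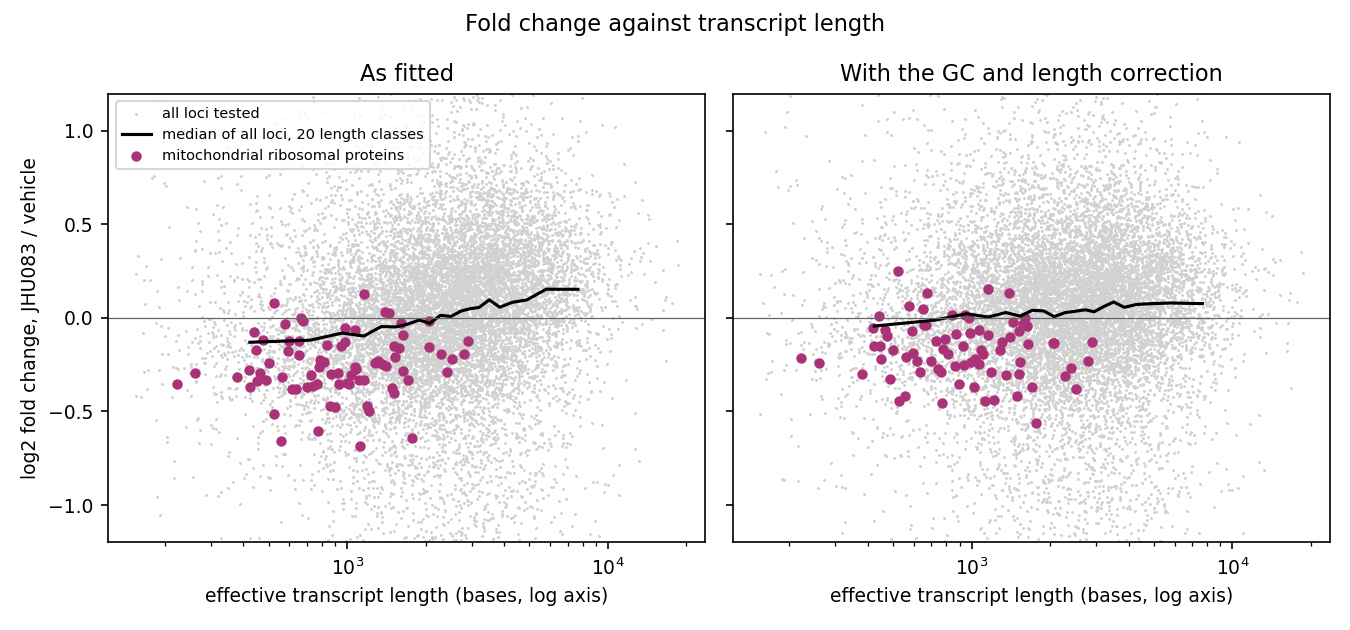
Log2 fold change (y axis) against effective transcript length in bases (x axis, log scale) before (left) and after (right) the GC and length correction, with members in purple, all other tested loci in grey and the black line giving the median of all loci in 20 length classes; loci with larger changes lie outside the axis. The members' median is -0.26 before and -0.17 after the correction, and most of the purple points lie below the line in both panels.

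The samples were also divided by whether Rn18s-rs5 and Gm42418 are listed at 0, a difference that cuts across the groups. Among the 5 samples listed at 0 (3 vehicle, 2 JHU083) the members' median log2 fold change was -0.15, with 58 of 77 below 0. Mrpl38 alone passed the test there (log2 fold change -0.59, adjusted p = 0.029, edgeR; background 4.61%), 0 rose (background 4.18%), and 6 members were lower at an unadjusted p under 0.05 (background 13%). Among the other 5 samples (2 vehicle, 3 JHU083) the median was -0.34, with 76 of 77 below 0, 18 members fell (background 11.9%) and 0 rose (background 9.86%). The first subset holds JHU083 replicate 3, and a difference between the subsets was not tested.

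Neighbouring genes gave a further view of these loci. Of the 70 members at loci with 1 symbol, 22 (31.4%) start within 500 bases of another protein-coding gene on the opposite strand, against 14.1% of 10550 protein-coding loci tested. Among 11 members that fell and have such a neighbour, including Mrpl51 whose locus also lists a microRNA, 10 neighbours could be tested. Of these 5 fell, 2 rose and 3 did not pass, where 18.3% of all loci fell and 18.4% rose. Mrps12 faces Sars2, the mitochondrial seryl-tRNA synthetase, at 172 bases, and both fell (Sars2 by 0.30 on the log2 scale, adjusted p = 0.032, edgeR). Mrps27 faces Ptcd2, a mitochondrial pentatricopeptide repeat protein, which fell by 0.52, and Mrpl36 faces Ndufs6, a subunit of respiratory complex I, which fell by 0.38 (adjusted p = 0.0055 and 0.021, edgeR). The other neighbours that fell were not mitochondrial: Ncapd2, a condensin subunit facing Mrpl51, fell by 1.03, and Mtbp, facing Mrpl13, fell by 0.55 (adjusted p = 1.7e-05 and 0.0018, edgeR). Ndufs6 shares exonic sequence with Mrpl36, and Mtbp with Mrpl13, on opposite strands. Reads of these pairs cannot be separated, so the 2 genes of a pair are not independent measurements. In the opposite direction, Klc4, facing Mrpl2 at 207 bases, rose by 0.68, and Ppp1r10, facing Mrps18b at 45 bases, rose by 0.37 (adjusted p = 0.0015 and 0.036, edgeR). Of the neighbours of 14 members that did not pass the test, 3 fell and 1 rose.

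For 7 members the locus lists further symbols, so reads of several genes share 1 value. They are Mrpl51, Mrps34 (with Nme3), Mrps18c, Mrps6 (with Slc5a3), Mrps24 (with Urgcp), Mrpl33 (with Bre) and Mrpl53 (with Ccdc142). Of these Mrpl51 fell, by 0.36 on the log2 scale (adjusted p = 0.021, edgeR). Mrps6 stood at 28.9, 40.1, 38.7, 28 and 29.7 CPM in vehicle and 32.7, 34.9, 22.2, 25.2 and 33.1 CPM in JHU083 samples. Its JHU083 replicate 3 was the lowest of the 10, unlike in most members. In all, 32 members share exonic sequence with another annotated gene, on either strand. Of the 45 with no such overlap and 1 symbol, 14 (31.1%) fell, against 18.3% of all loci, with a median log2 fold change of -0.26.

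Proteins of the same ribosome that carry other symbols were examined next. Of 6 such genes 3 fell and 0 rose, against 18.3% and 18.4% of all loci. Ptcd3, a pentatricopeptide repeat protein of the small subunit, stood at 21.3, 23.5, 24.5, 20.8 and 24.3 CPM in vehicle and 19.8, 17.3, 18.3, 18.9 and 18.1 CPM in JHU083 samples. Its groups did not overlap and the log2 fold change was -0.31 (adjusted p = 0.012, edgeR). Dap3, a GTP-binding protein of the small subunit, fell by 0.26, and Chchd1 fell by 0.34 (adjusted p = 0.034 and 0.039, edgeR). Ict1, the peptide-release protein built into the large subunit, had -0.26 (adjusted p = 0.066, edgeR). With the GC and length correction Dap3 lost its call (-0.17, adjusted p = 0.051) and Ict1 gained one (-0.26, adjusted p = 0.048, edgeR).

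Factors that work with the ribosome were divided into those that build it and those that act in translation. Of 24 assembly factors 2 (8.33%) fell, a smaller share than the 18.3% of all loci, the GTPase Noa1 (-0.31, adjusted p = 0.041) and the helicase Dhx30 (-0.19, adjusted p = 0.043, edgeR), and 0 rose, with a median log2 fold change of -0.16 over the list. With the GC and length correction both lost their calls (adjusted p = 0.14 and 0.26, edgeR), while Trmt61b fell by 0.38 and Mrm2 rose by 0.54 (adjusted p = 0.038 and 0.011, edgeR). Of 19 translation factors 5 (26.3%) fell and 0 rose, against 18.3% and 18.4% of all loci, with a median of -0.11. As many, 5, fell after the correction. Tufm, the elongation factor that brings aminoacyl-tRNA to the ribosome, stood at 85.5, 76.2, 67.7, 81.5 and 93.2 CPM in vehicle and 54.6, 50.04, 70.6, 51.0 and 52.9 CPM in JHU083 samples. JHU083 replicate 3 exceeded vehicle replicate 3 and the other 4 lay below all vehicle samples. Tufm fell by 0.53, its exchange factor Tsfm by 0.54 and the translocase Gfm1 by 0.30 on the log2 scale (adjusted p = 0.0018, 0.015 and 0.011, edgeR). The recycling factors Gfm2 and Mrrf fell by 0.33 and 0.30 (adjusted p = 0.017 and 0.041, edgeR).

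Genes that copy and transcribe mitochondrial DNA or process its RNA had a median log2 fold change of -0.06 over 16 tested. Trmt10c, a subunit of mitochondrial ribonuclease P, rose by 0.41 (adjusted p = 0.016, edgeR), and 0 fell, against 18.4% and 18.3% of all loci. Its level was 16.5, 18.4, 18.6, 17.5 and 13.1 CPM in vehicle and 20.7, 18.4, 24.7, 25.8 and 22.1 CPM in JHU083 samples. With the GC and length correction Trmt10c lost its call (0.28, adjusted p = 0.075, edgeR), and 2 genes of the list fell, Pnpt1 (-0.28, adjusted p = 0.0073) and Tefm (-0.48, adjusted p = 0.032, edgeR).

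The transcripts that this ribosome translates were higher after JHU083. The 13 protein-coding genes of mitochondrial DNA are counted in 4 loci, and all 4 rose, against 18.4% of all loci. mt-Nd6, a subunit of respiratory complex I encoded on its own strand of the mitochondrial genome, stood at 162, 155, 156, 176 and 166 CPM in vehicle and 285, 249.7, 232, 268 and 286 CPM in JHU083 samples. The groups were far apart, and mt-Nd6 rose by 0.70 ± 0.07 (SE) on the log2 scale (adjusted p = 1.5e-05, edgeR). The locus of mt-Cytb rose by 0.41 and that of mt-Nd1 and mt-Nd2, which also holds both mitochondrial ribosomal RNAs, by 0.53 (adjusted p = 0.01 and 0.012, edgeR). The locus with the remaining genes, mt-Co1 among them, rose by 0.40 (adjusted p = 0.012, edgeR). Summed over the 4 loci the level was 15135 to 20199 CPM in vehicle and 21404 to 25441 CPM in JHU083 samples, with no overlap. With the GC and length correction the loci of mt-Nd6 and mt-Cytb kept their calls and the others did not pass (background 22.6% higher).

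**Figure D5:**
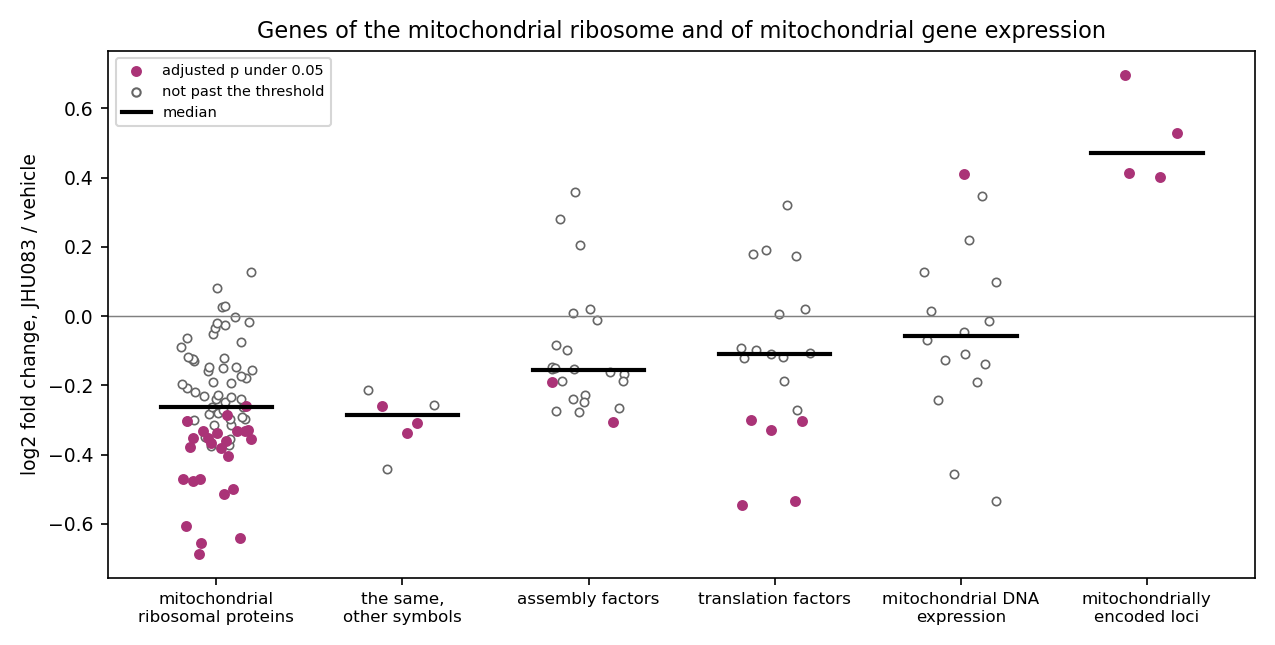
Log2 fold change of JHU083 over vehicle (y axis) for each gene or locus of 6 groups (x axis), filled where the adjusted p was under 0.05; black lines are medians. The medians are -0.26 for the 77 members and -0.16 and -0.11 for assembly and translation factors, while all 4 mitochondrially encoded loci lie between 0.40 and 0.70.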

How the data were processed

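Poly(A) RNA was sequenced in paired ends from 10 samples, 5 per group, grouped by the sample titles. Per the submitters' processing notes, bcl2fastq 2.17.1.14, FastQC 0.11.2 and TopHat2 2.1.1 were used with GRCm38; the counter and annotation are not given in the sources used here. The column the authors deposited as raw counts holds estimated counts: whole fragments times a factor per sample (0.888 to 1.17). Dividing by that factor gave whole numbers, within 0.01 fragment, for 99.8% to 99.9% of values. A second deposited column was read as FPKM from its values. One row with no gene symbol (at most 0.0021% of fragments) was left out.

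Whole fragments were tested with edgeR 4.0.16 (R 4.3.3; quasi-likelihood F-test, TMM scaling, filterByExpr, Benjamini-Hochberg over 12500 loci, threshold 0.05). The correction used smooth curves (mgcv 1.9.3) of GC content and length per sample as offsets. Lengths are those implied by the deposited counts and FPKM. Positions and GC come from GENCODE M21. Alternatives were DESeq2 1.42.0, limma-voom 3.58.1, other scalings and filters, each sample left out, and sample subsets; scripts were tested on simulated data. Replicate numbers are not stated to pair the samples and were not used as pairs in the main fit. Members, lists and tests were chosen with earlier results of these data known. Genes named are the 10 largest decreases and any increases, the 5 highest and lowest by FPKM, a panel chosen by role, multi-symbol loci, the 3 smallest p-values per direction in each related list and calls lost under the correction; Mrpl3, Mrpl48, Mrpl15 and the other calls gained, the neighbouring genes, Gfm2, Mrrf, Pnpt1, Tefm, Trmt61b and Mrm2 were added after their values were seen. The kit is not stated to keep strand, so overlapping genes on opposite strands cannot be separated.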

Additional observations from a re-analysis of the deposited data

Results flagged for a closer look

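In 5 groups of 5 samples 1 sample lay far from the others, among 96 groups examined; chance alone flags about 1 in 20 groups, or 4.8 here. The gap to the nearest sample, as a share of the group's range of log2 CPM, is given for each. In Mrpl38, vehicle replicate 1 (5.32) stood above the other vehicle samples (5.10 to 5.15), with a share of 0.742. JHU083 replicate 3 was the high sample in the remaining groups. It stood at 5.78 in Mrpl2 (others 5.13 to 5.22, share 0.864), at 5.30 in Mrps18a (4.56 to 4.77, 0.721), at 4.94 in Mrps18c (4.41 to 4.55, 0.748) and at 6.14 in Tufm (5.65 to 5.77, 0.749).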

How the results depend on the processing

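The median log2 fold change of the mitochondrial ribosomal protein genes tested was negative under every alternative run, from -0.147 (samples listed at 0 at the ribosomal RNA loci) to -0.346 (library size only, which moved the median of all loci to -0.07). Leaving out 1 sample gave medians of -0.345 to -0.218. The number of members that fell, 25, ranged from 12 to 54 when 1 sample was left out: 12 without vehicle replicate 1, 14 without vehicle replicate 5, 16, 13, 16 and 14 without JHU083 replicates 1, 2, 4 and 5 (all loci 15.1% to 16.5% in these fits), and 54 without JHU083 replicate 3 (23.1%). It was 51 with library size only (all loci 25.1%), 1 in the samples listed at 0 (4.61%), and, apart from the replicate block, within 1.5 times of 25 under the other alternatives (DESeq2 gave 32 against 19.9% of all loci, limma-voom 27 against 18.6%). Of the 25, at least 22 kept their call under DESeq2, limma-voom, the other scalings and no filter. With replicate number as a block 12 of the 77 members fell (all among the 25), close to the 14.1% of all loci in that fit. In the related lists 3 genes fell with the block. The labels do not say whether the numbers pair the samples. The correlations of same-numbered samples were -0.20, 0.09, -0.57, -0.12 and -0.16, which does not decide it. Members that rose numbered 1 under the 3 fits with GC and length correction, of which the fit with block gave 18 lower. The third, with APPRIS transcripts, was chosen after seeing the data.

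In the related lists, 10 of 69 loci tested (14.5%) fell in the main analysis, against 18.3% of all loci. The number was 24 with library size only (all loci 25.1%) and 6 with no filter (9.27%). It was also 6 with the status at the ribosomal RNA loci as covariate (17.4%). In the samples listed at 0 it was 0 (4.61%), and in the others 2 (11.9%). With 1 sample left out it ran from 4 without vehicle replicate 5 (15.9%) to 23 without JHU083 replicate 3 (23.1%). It was 5 without vehicle replicate 1 or 4 or JHU083 replicate 1, 4 or 5 (15.1% to 16.5%). Their 5 increases, 7.25% of the 69 against 18.4% of all loci, were the 4 mitochondrially encoded loci and Trmt10c. The number of increases was 2 at loci with 1 symbol. After GC and length correction it was 3 (all loci 22.6%) and, with block, 2. It was 1 in the samples listed at 0 (4.18%) and 2 in the others (9.86%). With 1 sample left out it was 5 to 8 (without vehicle replicate 3).

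Over all 77 members, 15 changed sign in the samples listed at 0, 7 to 9 under the 3 GC and length corrections and 0 to 4 under each other alternative. The values follow for the genes named by rule. Mrpl23 gave -0.001 (library size only), -0.023 to 0.145 when 1 sample was left out (the lowest without JHU083 replicate 3) and -0.00039 (samples not listed at 0). Mrps31 gave -0.058 (library size only), -0.055 to 0.109 when 1 sample was left out (below 0 without vehicle replicate 4, -0.001, or 5, -0.009, or JHU083 replicate 5), -0.085 (samples not listed at 0), and -0.019, -0.025 (with block) and -0.016 (APPRIS) after GC and length correction. Under the same 3 corrections Mrps34 gave 0.048, 0.048 and 0.050, Mrps24 0.017, 0.016 and 0.019, and Mrpl53 0.132, 0.135 and 0.104. Mrpl53 also gave 0.075 in the samples listed at 0 and -0.094 to 0.021 when 1 sample was left out, above 0 in 5 of these fits, and Mrps18c gave 0.004 in the samples listed at 0. The cause of these changes was not tested. The least abundant members hold as few as 107 fragments in a sample, and the part of depth in these values was not tested.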
